A study of Mus musculus with 6 samples.

Results

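The 10 genes described here are Pacsin1, Tpm2, Nes, Klhl30, Alpi, Gcnt4, Mrvi1, Pcp4l1, Abcb4 and Afm. Several of these genes are known mainly from muscle, the nervous system, gut or liver. All 10 were lower in mouse leukemia libraries labelled DOT1L High than in those of the same leukemia labelled NT. They are 10 of the 49585 genes in the count table and of the 15812 genes with enough counts to be tested, and all 10 passed that filter on low counts. They were chosen on their measured falls between the labels, so their differences between labels are given below as a description, with no test. The rule does not say which pair of labels chose each gene. Among genes that passed the test and whose mean in the higher group reached 5 CPM, the count scaled to library size, Pacsin1, Alpi, Tpm2, Klhl30, Nes and Gcnt4 stood at places 3, 4, 5, 6, 8 and 10 of 738 for the fall from NT to High. Abcb4, Nes, Pacsin1 and Tpm2 stood at places 5, 7, 8 and 11 of 140 for the fall from NT to Low. Alpi, Klhl30 and Gcnt4 stood further down, at places 30, 38 and 42. Gcnt4, Mrvi1, Pcp4l1 and Afm stood at places 2, 3, 5 and 6 of 150 for the fall from Low to High.

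RNA-seq was performed on 6 libraries of leukemia cells that carry KMT2A-MLLT3, a fusion of a histone methyltransferase with a partner of DOT1L, which itself methylates histone H3 on transcribed genes. All 6 come from acute myeloid leukemia of mice and were grown in medium with serum, interleukin 3, interleukin 6 and stem cell factor. DOT1L was introduced into marrow of sick mice, cells that expressed it at low or at high level were separated by sorting, and RNA was taken 3 days later. The groups NT, Low and High each held 1 library of leukemia K3117 and 1 of leukemia K3174. The labels do not expand NT, and whether NT cells were transduced or sorted is not stated, so handling and DOT1L level cannot be told apart in a contrast with NT. The vector and promoter that drove DOT1L, the age and strain of the mice, and whether the K numbers mark separate mice are not stated. If they do not, p-values reflect only how far these samples differ, which may be technical. The mouse Dot1l gene was counted at 128, 184 and 149.8 CPM in the NT, Low and High libraries of K3117 and at 158, 152 and 136 CPM in K3174, so its level does not order the libraries as the labels do, and the counts may or may not include reads of the introduced construct.

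Libraries held between 22908445 and 33265848 counts, and a floor of 3 counts corresponds to between 0.0900 and 0.133 CPM with TMM scaling. The 10 markers of leukemic myeloid cells summed to between 1552 and 4334 CPM in every library, all 10 were tested and 8 were higher in High than in NT (edgeR quasi-likelihood test, adjusted p under 0.05). All 8 late neutrophil precursor markers rose, from a sum between 11.1 and 109 CPM in NT to one between 1523 and 6849 CPM in High. Over all tested genes 1158 fell and 1583 rose from NT to High, and with upper quartile scaling 1658 of 2953 called genes fell. In bulk libraries such as these, fewer cells of a type and less RNA per cell cannot be told apart.

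Several of the 10 genes have known roles outside blood. Pacsin1 bends membranes during endocytosis in neurons, Tpm2 encodes the beta tropomyosin of muscle thin filaments, and Nes encodes nestin, the intermediate filament protein of neural progenitors. Klhl30 belongs to the kelch-like family, many members of which hand substrates to a cullin ubiquitin ligase. Alpi encodes intestinal alkaline phosphatase and Gcnt4 a branching enzyme of mucin-type O-glycans. Mrvi1 encodes a partner of the inositol trisphosphate receptor that is a substrate of cGMP-dependent kinase, and Pcp4l1 a small relative of the calmodulin-binding protein Pcp4. Abcb4 moves phosphatidylcholine into bile and Afm encodes afamin, a vitamin E-binding plasma protein of the albumin family. Not every member is foreign to myeloid cells, since Mrvi1 takes its name from a retrovirus integration site in mouse myeloid leukemia. The genes lie on 7 chromosomes of GRCm38, all are protein coding, and they overlap few other gene models. Antisense, pseudogene or noncoding models overlap Gcnt4, Mrvi1, Abcb4 and Afm and hold 0, 5, 32 and 2 counts over the 6 libraries.

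RefSeq promoter windows of GRCm38.p6, each 250 bases before to 50 after an annotated start, were at hand for 9 of the 10 genes, with 11 windows in all. The 4 shown are the gut gene Alpi and the liver gene Afm, which hold HNF4 and HNF1 motif matches, and Abcb4 and Pacsin1, the members with the smallest and the largest fall from NT to High. The Pacsin1 window lies at a RefSeq start inside the gene as GENCODE annotates it. Capitals mark matches to the motifs named after each set.
Alpi promoter, chr1:87101557-87101856, minus strand: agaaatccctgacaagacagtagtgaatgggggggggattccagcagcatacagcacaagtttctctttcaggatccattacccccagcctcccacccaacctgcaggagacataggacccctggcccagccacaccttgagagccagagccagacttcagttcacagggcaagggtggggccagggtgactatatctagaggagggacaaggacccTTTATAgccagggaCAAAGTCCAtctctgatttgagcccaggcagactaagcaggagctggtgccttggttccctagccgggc
Afm promoter, chr5:90518699-90518998, plus strand: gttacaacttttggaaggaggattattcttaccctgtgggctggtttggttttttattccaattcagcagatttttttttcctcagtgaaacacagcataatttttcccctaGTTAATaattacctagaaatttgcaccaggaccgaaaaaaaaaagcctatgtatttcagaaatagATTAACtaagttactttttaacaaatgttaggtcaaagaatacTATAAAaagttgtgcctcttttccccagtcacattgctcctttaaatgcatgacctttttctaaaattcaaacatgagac
Abcb4 promoter, chr5:8893471-8893770, plus strand: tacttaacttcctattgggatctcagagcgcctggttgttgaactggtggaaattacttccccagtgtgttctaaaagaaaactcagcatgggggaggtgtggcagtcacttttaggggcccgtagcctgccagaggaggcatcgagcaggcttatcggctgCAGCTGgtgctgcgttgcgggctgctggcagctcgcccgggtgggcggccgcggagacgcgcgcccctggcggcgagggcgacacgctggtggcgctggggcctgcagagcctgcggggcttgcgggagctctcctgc
Pacsin1 promoter, chr17:27684989-27685288, plus strand: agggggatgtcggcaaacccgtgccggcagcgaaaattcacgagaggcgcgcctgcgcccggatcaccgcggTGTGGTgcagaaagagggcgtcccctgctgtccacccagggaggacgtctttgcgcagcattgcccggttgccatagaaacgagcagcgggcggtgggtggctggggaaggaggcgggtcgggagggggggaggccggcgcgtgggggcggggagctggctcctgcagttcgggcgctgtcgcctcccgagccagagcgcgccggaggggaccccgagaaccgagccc

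In the Alpi window the capitals mark CAAAGTCCA, an HNF4 motif that begins 19 bases before the start and that 0.475% of all 32851 windows hold, and TTTATA, the TATA box TATAAA read on the opposite strand. The Afm window holds the HNF1 half-site GTTAAT 138 bases before the start, the same site read on the opposite strand as ATTAAC 73 bases before it, and TATAAA 30 bases before it. Of all windows, 7.10% hold GTTAAT and 13.6% hold TATAAA. The Abcb4 window holds the E-box CAGCTG, found in 16.3% of windows, and the Pacsin1 window the RUNX motif TGTGGT, found in 16.8%. The windows differ in CpG content: observed over expected CpG was 0.0420 in Alpi and 0.124 in Afm but 0.703 in Abcb4 and 0.892 in Pacsin1, against a median of 0.384 over all windows. Motifs were searched on both strands and were chosen with the counts, those of Hnf4a included, already seen. Of the 11 windows of these genes, 3 held CAGCTG, 3 held TATAAA, 2 held the MEIS motif TGACAG (19.2% of all windows), 2 held GTTAAT (Afm and Mrvi1) and 1 held the GATA motif AGATAA (11.2%). None of the 11 held the HOX-MEIS motif TGATTTAT (0.977%), the C/EBP motif TTGCNNAA (10.8%) or the PU.1 motif GAGGAAGT (3.20%). Abcb4, the other liver gene, held no HNF match. A match is a description of the letters and not a bound site.

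Over all 10 genes, the libraries stood in the order of the labels. The genes summed to 171.1, 85.6 and 17.7 CPM in the NT, Low and High libraries of K3117, and to 64.3, 22.7 and 6.06 CPM in K3174. In the median, 30.4% of the NT level was present in Low and 6.75% in High of K3117, and 35.7% and 7.84% in K3174. NT exceeded Low and Low exceeded High in both leukemias for 9 of the 10 genes, the exception being Abcb4, and 11.0% of all tested genes showed that order. Both High libraries lay below both NT libraries for 9 of 10, the exception being Afm, against 25.3% of all tested genes. The fitted contrast of High with NT called 10 of 10 lower, against 7.32% of all tested genes, which restates the choice. Without the leukemia as a block 2 of 10, Pacsin1 and Nes, were called lower. With the block, the median log2 fold change of the 10 genes was -4.02 against -0.01 for all tested genes. In that fit 336 tested genes had a fold change at or below that of Abcb4, the member with the smallest fall.

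**Figure D1:**
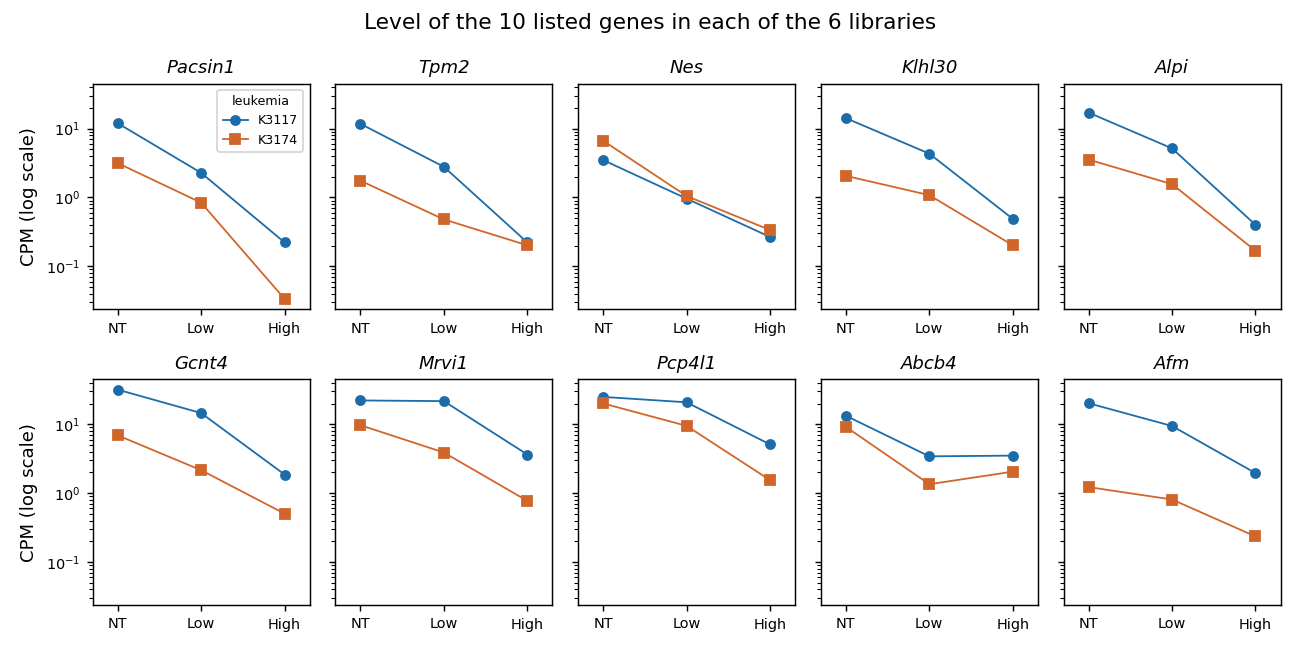
TMM-normalised CPM (log axis) of the 10 genes in NT, Low and High, with 1 point per library (circles K3117, squares K3174) joined within a leukemia. Levels drop from NT to High in both leukemias, Abcb4 is lowest in Low of K3174 and level between Low and High of K3117, and K3117 lies above K3174 except for Nes.

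Of the cytoskeletal and membrane genes, Pacsin1 (GRCm38 chromosome 17, 27655509 to 27711482, plus strand) showed the largest difference between labels. It was counted at 12.0, 2.27 and 0.222 CPM in the NT, Low and High libraries of K3117 and at 3.15, 0.840 and 0.0337 CPM in K3174. Each step down was present in both leukemias, the groups did not overlap, and the High libraries rest on only 5 and 1 counts. The NT level was 53.8 (95% interval 22.9 to 167) times the High level in K3117 and 93.6 (95% interval 16.3 to 3750) times in K3174, intervals that cover counting error only. The fitted log2 fold change of High over NT was -5.85 ± 0.41 (SE).

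Tpm2 (chromosome 4, 43514711 to 43523765, minus strand) was counted at 11.7, 2.79 and 0.222 CPM in the NT, Low and High libraries of K3117 and at 1.75, 0.480 and 0.202 CPM in K3174. The leukemias lay far apart in NT and together in High, the Low library of K3117 exceeded the NT library of K3174, and in High the counts were 5 and 6. The log2 fold change of High over NT was -4.64 ± 0.50, and that of Low over NT -1.99 ± 0.37. Nes (chromosome 3, 87971078 to 87980451, plus strand) was counted at 3.49, 0.961 and 0.267 CPM in the NT, Low and High libraries of K3117 and at 6.65, 1.05 and 0.337 CPM in K3174. It is the 1 member with the higher level in K3174, in each of the labels, and its groups did not overlap. Its log2 fold change was -4.02 ± 0.39 for High and -2.27 ± 0.32 for Low over NT.

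Klhl30 (chromosome 1, 91351016 to 91362416, plus strand) was counted at 14.2, 4.32 and 0.489 CPM in the NT, Low and High libraries of K3117 and at 2.06, 1.08 and 0.202 CPM in K3174. The Low library of K3117 lay above the NT library of K3174, so NT and Low overlapped across leukemias while High lay below both. The log2 fold change of High over NT was -4.32 ± 0.39. Over the 6 libraries Klhl30 was the member nearest to the median pattern of the 10, at a root mean square distance of 0.207 on the centred log2 scale, and Nes and Abcb4 were the farthest, at 1.24 and 1.28.

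The 2 enzymes of this set were Alpi and Gcnt4. Alpi (chromosome 1, 87098002 to 87101606, minus strand) was counted at 17.0, 5.16 and 0.400 CPM in the NT, Low and High libraries of K3117 and at 3.55, 1.56 and 0.168 CPM in K3174. In High 2.35% and 4.75% of the NT level were present, on 9 and 5 counts, and the log2 fold change was -5.02 ± 0.35. Gcnt4 (chromosome 13, 96924689 to 96950906, plus strand) was counted at 31.9, 14.6 and 1.87 CPM in the NT, Low and High libraries of K3117 and at 6.92, 2.16 and 0.505 CPM in K3174. Its High libraries held 42 and 15 counts, with NT over High ratios of 17.1 (95% interval 12.6 to 23.8) and 13.7 (95% interval 8.06 to 25.1). For both genes the Low library of K3117 exceeded the NT library of K3174, and no High library reached any NT library.

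The calcium-signalling genes Mrvi1 and Pcp4l1 had the smallest fitted step from NT to Low, although in K3174 Afm and Klhl30 kept more of their NT level, at 66.1% and 52.5%. Mrvi1 (chromosome 7, 110868266 to 110982461, minus strand) was counted at 22.2, 21.7 and 3.65 CPM in the NT, Low and High libraries of K3117 and at 9.72, 3.90 and 0.774 CPM in K3174. The Low library of K3117 lay above the NT library of K3174, and both High libraries below all others. In Low, 97.7% of the NT level was present in K3117 but 40.1% in K3174. Pcp4l1 (chromosome 1, 171173262 to 171196268, minus strand) was counted at 25.0, 20.9 and 5.11 CPM in the NT, Low and High libraries of K3117 and at 20.1, 9.50 and 1.55 CPM in K3174. NT and Low overlapped across leukemias and High lay below both. Its Low level was 83.5% of NT in K3117 and 47.3% in K3174. The log2 fold changes of High over NT were -3.08 ± 0.31 for Mrvi1 and -2.93 ± 0.28 for Pcp4l1, and those of Low over NT -0.63 ± 0.27 and -0.69 ± 0.25.

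The liver genes Abcb4 and Afm differed in pattern. Abcb4 (chromosome 5, 8893717 to 8959231, plus strand) was counted at 13.3, 3.43 and 3.51 CPM in the NT, Low and High libraries of K3117 and at 9.19, 1.35 and 2.05 CPM in K3174. Both NT libraries lay above the rest, and Low and High overlapped. It was already low in Low and no lower in High: High stood at 102% of Low in K3117 and at 152% in K3174. Its log2 fold change was -2.32 ± 0.25 for Low over NT, -2.04 ± 0.25 for High over NT and 0.27 ± 0.27 for High over Low. Afm (chromosome 5, 90518932 to 90553543, plus strand) was counted at 20.2, 9.45 and 1.96 CPM in the NT, Low and High libraries of K3117 and at 1.23, 0.810 and 0.236 CPM in K3174. Within each leukemia it stepped down with the labels, but the High library of K3117 lay above the NT library of K3174, so the groups overlapped. The log2 fold change of High over NT was -3.12 ± 0.30.

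Per kilobase of exon, mean levels in NT ran from 0.790 CPM for Nes to 14.3 CPM for Pcp4l1, with Alpi, Gcnt4 and Afm at 4.41, 3.82 and 3.53 CPM. In High they ran from 0.0196 CPM for Pacsin1 to 2.11 CPM for Pcp4l1. The SD over the 2 NT libraries exceeded the mean CPM for Tpm2, Klhl30 and Afm, as for Afm at 10.7 ± 13.4 CPM (SD, n = 2). That SD includes the difference between the leukemias. The order of genes with similar means in NT may therefore differ between the leukemias, and it was not tested. Called lower in Low than in NT were 7 of the 10 genes, all but Mrvi1, Pcp4l1 and Afm, against 1.29% of all tested genes, and between 3 and 9 when each library was left out in turn. Called lower in High than in Low were 9 of 10, all but Abcb4, against 1.35% of all tested genes, and between 7 and 9 with a library left out. Without the block 0 of 10 were called in either comparison. These comparisons share libraries with each other and with the choice of the genes, so nothing is read from their counts.

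The place of Low between NT and High on the log2 scale is also a description, because Low values may have entered the choice of any of the 10 genes. Low lay above the midpoint of NT and High for 8 genes, by between 0.34 for Tpm2 and 1.01 for Alpi. Relative to the midpoint, Nes stood at -0.26 ± 0.34 and Abcb4 at -1.30 ± 0.23 (SE). Of all tested genes, 0.348% were called below the midpoint, Abcb4 among them, and 0.00632% above it, none of the 10 among them. Abcb4 was no longer called below the midpoint with library totals, with a mean of at least 5 CPM, without the block, or without either Low library. With no filter on low counts, or with any 1 of the NT or High libraries left out, between 1 and 3 of Alpi, Gcnt4, Mrvi1 and Pcp4l1 were called above it.

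The difference between the leukemias is likewise given without a test. The places given above count genes whose mean in the higher group reached 5 CPM, and some members reached it only through 1 leukemia. The library of K3174 lay under 5 CPM in NT for Pacsin1, Tpm2, Klhl30 and Alpi and in Low for Gcnt4, Mrvi1 and Afm. For Nes the NT library of K3117 lay under 5 CPM, at 3.49 CPM, and that of K3174 above it, at 6.65 CPM. A choice with such a minimum may favour genes that are high in 1 leukemia, in either direction. With the labels held as 3 levels, 9 of the 10 genes were lower in K3174 than in K3117 at an adjusted p under 0.05 by edgeR, against 6.32% of all tested genes, and nothing is read from that count. The difference was largest for Afm, with a log2 fold change of -3.67 ± 0.24 (SE), and K3117 stood above K3174 by 16.5-fold in NT, 11.7-fold in Low and 8.30-fold in High. It was -2.38 ± 0.36 for Tpm2, -2.36 ± 0.20 for Gcnt4 and -2.28 ± 0.28 for Klhl30. Alpi, Mrvi1 and Pacsin1 followed at -1.94 ± 0.24, -1.90 ± 0.24 and -1.76 ± 0.27. Pcp4l1 at -0.96 ± 0.22 and Abcb4 at -0.84 ± 0.21 had the smallest of these differences. Nes was the exception, at 0.57 ± 0.29 with a 95% interval of -0.06 to 1.20. Without either Low library 7 of 10 were called lower, Pcp4l1 and Abcb4 being lost.

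The late neutrophil precursor markers ran the other way between the leukemias, as they did between the labels. They summed to 11.1, 101 and 1523 CPM in the NT, Low and High libraries of K3117 and to 109, 1241 and 6849 CPM in K3174, and 7 of the 8 were higher in K3174. Their part in the differences of the 10 genes was not tested. The median excess of K3117 over K3174 in the 10 genes was 4.20-fold in NT, 3.66-fold in Low and 2.86-fold in High.

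**Figure D2:**
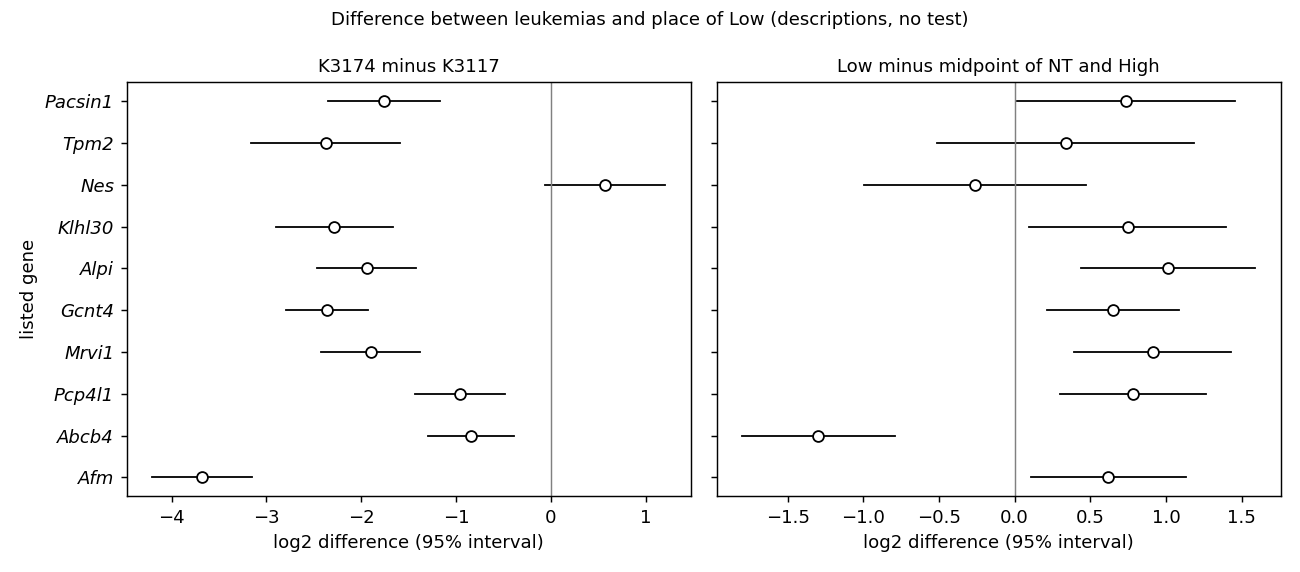
Left, fitted log2 difference of K3174 minus K3117 for each of the 10 genes with its 95% interval. Right, log2 difference of Low from the midpoint of NT and High with its 95% interval. Both are shown as a description. Of the 10 genes, 9 lie left of 0 between the leukemias and only Nes lies to the right. The interval for Low lies wholly below the midpoint for Abcb4 alone. It lies wholly above the midpoint for Pacsin1, Klhl30, Alpi, Gcnt4, Mrvi1, Pcp4l1 and Afm. These intervals are not adjusted for the number of genes.

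Whether the fall with the High label differed between leukemias was fitted with a term for the leukemia difference in High against that in NT and Low. For the 10 genes it is a description, because a choice on falls may favour genes that fall alike in both leukemias. None of the 10 genes passed (edgeR quasi-likelihood test, and 0 by DESeq2), against 0.291% of all tested genes, and nothing is read from that count. Of the 10 genes, 2 had an unadjusted p under 0.05. Tpm2 was 1 of these: the NT over High ratio was 52.7 (95% interval 22.4 to 163) in K3117 and 8.67 (95% interval 3.65 to 25.0) in K3174, and the term was 2.52 with a 95% interval of 0.54 to 4.50 (edgeR adjusted p = 0.68). Pcp4l1 was the other, with NT over High ratios of 4.89 and 13.0 and an interval of the term from -1.83 to -0.17 (edgeR adjusted p = 0.79). For Pacsin1 the interval ran from -3.44 to 1.74, so a severalfold difference in either direction was not detectable at this depth.

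Relatives of the 10 genes were examined to see whether their families were lower in High too. Of 45 relatives, 30 were tested, 7 fell and 1 rose from NT to High (median log2 fold change -0.11), against 7.32% and 10.0% of all tested genes. The largest fitted falls among tested relatives were beside Abcb4, though not those with the smallest adjusted p. Abcb1b, a multidrug transporter, was counted at 56.9, 47.0 and 20.9 CPM in the NT, Low and High libraries of K3117. In K3174 it was counted at 61.0, 30.2 and 11.1 CPM. Its log2 fold change was -1.96 ± 0.21 (edgeR adjusted p = 6.7e-05). Its paralog Abcb1a fell from 1.35 to 0.222 CPM in K3117 and from 0.394 CPM to no count in K3174 (log2 fold change -3.17 ± 0.81, edgeR adjusted p = 0.018). The 3 transporters are close paralogs, so reads may have been divided between them. Afp, the fetal albumin relative of Afm, fell by 0.86 ± 0.20 on the log2 scale (adjusted p = 0.012), from 26.5 to 16.6 CPM in K3117 and from 3.85 to 1.68 CPM in K3174. That call was lost without the High library of K3174, and Alb and Gc, the other albumin relatives, had no count.

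The remaining called relatives were Tpm4 (-1.01 ± 0.12), the neurofilament gene Nefh (-1.15 ± 0.17), Klhl5 (-1.33 ± 0.12) and Klhl41 (-1.75 ± 0.30), which fell, and Klhl6 (1.08 ± 0.17), which rose (log2 fold changes with SE). Among abundant relatives that did not pass, Tpm3 stood at 0.08 ± 0.12, vimentin (Vim) at -0.14 ± 0.14, Pacsin2 at 0.31 ± 0.11, Lrmp, the relative of Mrvi1, at 0.35 ± 0.14 and Gcnt1 at 0.18 ± 0.17. The alkaline phosphatase relatives of Alpi had too few counts to test, summing to between 0.131 and 0.511 CPM in NT and to 0 in High, and Pcp4 had no count. Without the leukemia as a block, 1 relative, Abcb1b, passed as lower and 0 as higher.

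Of 71 genes whose products work with those of the 10 genes, 49 were tested, 15 rose and 5 fell (median log2 fold change 0.28). Over all tested genes 10.0% rose and 7.32% fell. Tropomyosin partners that rose were the contractile and actin-binding genes Acta2 (1.36 ± 0.39), Cnn2 (1.01 ± 0.12), Myh9 (0.50 ± 0.12), Tnnc1 (1.28 ± 0.40) and Tnnt1 (0.61 ± 0.19), while Tnni2 fell (-1.23 ± 0.34). Acta2 and Tnnc1 were scarce, with means of 0.827 and 0.632 CPM in NT and 2.14 and 1.56 CPM in High. The call of Acta2 was lost by DESeq2, and Tnnc1 and Tnnt1 passed narrowly (edgeR adjusted p = 0.0476 and 0.0497). Of the endocytic partners of Pacsin1, Synj1 (0.57 ± 0.12) and Ehd1 (0.79 ± 0.12) rose and Bin1 (-0.52 ± 0.14) fell. Of the O-glycan enzymes that work around Gcnt4, C1galt1 (0.44 ± 0.13), its chaperone C1galt1c1 (0.48 ± 0.14), Galnt7 (0.45 ± 0.13) and St3gal4 (0.50 ± 0.14) rose and Fut7 (-0.76 ± 0.20) fell. Around Mrvi1, the receptor gene Itpr2 (0.81 ± 0.17) and the kinase substrate Vasp (0.58 ± 0.12) rose and Itpr3 (-0.94 ± 0.17) fell. Camk2d (1.42 ± 0.19) rose and Camk2a (-1.99 ± 0.33) fell among the calmodulin genes listed for Pcp4l1, and Abcc2 (1.09 ± 0.23), a canalicular transporter, rose on the list for Abcb4. The split depends on scaling, with 9 higher and 6 lower by library totals and 9 higher and 7 lower by upper quartile factors. Without the High library of K3174 it was 4 higher and 5 lower, and without the leukemia as a block 2 higher and 0 lower.

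The 40 nearest protein-coding neighbours, 2 on each side of a member, were examined to see whether the falls extended along the chromosome. Of 27 tested neighbours 8 fell and 0 rose by edgeR's quasi-likelihood test, against 7.32% of all tested genes that fell. By DESeq2 7 fell and 0 rose. By edgeR 0 rose at an unadjusted p under 0.05, and the median log2 fold change was -0.28 against -0.01 for all tested genes. Abcb1b, Abcb1a and Afp are counted both among the neighbours and among the relatives that fell, so those counts overlap. The neighbours of Pacsin1, Tpm2, Nes, Alpi and Gcnt4 that were tested did not pass. Beside Pacsin1, Rps10 stood at -0.05 ± 0.12, and beside Tpm2, which ends 0.982 kb from Car9, Car9 stood at -0.27 ± 0.20 and Tln1 at 0.04 ± 0.13. Isg20l2 near Nes stood at -0.21 ± 0.12, and Dis3l2 near Alpi at -0.44 ± 0.16 (adjusted p = 0.074).

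The neighbours that fell lay beside the other 5 genes. Beside Abcb4 these were Abcb1b and Abcb1a, 27.4 and 145.1 kb away on 1 side, while Crot, 6.80 kb away on the other side, stood at 0.13 ± 0.15 (adjusted p = 0.63). Beside Afm they were Afp and 5830473C10Rik (-2.34 ± 0.43, adjusted p = 0.0028), 10.0 and 7.56 kb away on its 2 sides. 5830473C10Rik was counted at 4.87, 3.46 and 0.934 CPM in the NT, Low and High libraries of K3117 and at 0.744, 0.240 and 0.168 CPM in K3174, and it was lower in K3174 (log2 -3.04, adjusted p = 1.6e-04). Ctr9 (-1.32 ± 0.12), a subunit of an RNA polymerase elongation complex, and Rnf141 (-0.84 ± 0.12) fell beside Mrvi1, Espnl (-0.79 ± 0.20) beside Klhl30 and Tomm40l (-0.63 ± 0.19) beside Pcp4l1. Between 5 and 11 neighbours were called lower when each library was left out in turn, and 2 without the leukemia as a block. The calls of Espnl and 5830473C10Rik were lost without the High library of K3117.

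**Figure D3:**
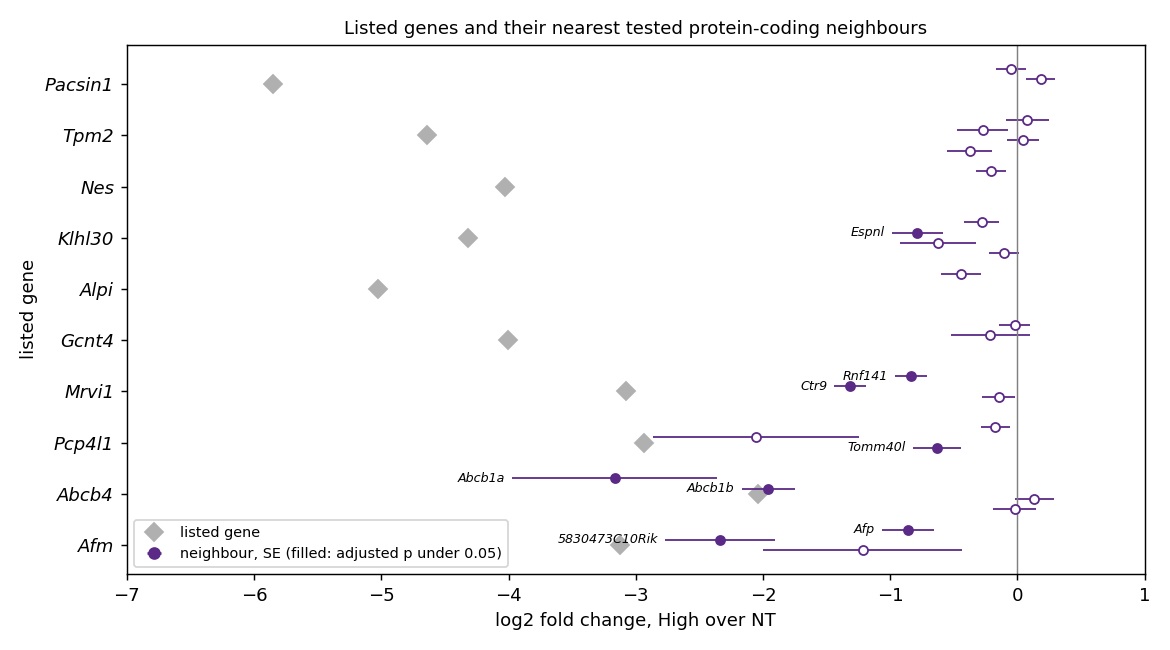
Log2 fold change of High over NT for each of the 10 genes (grey diamonds, chosen on their falls) and for its tested protein-coding neighbours (circles with SE, filled where the adjusted p was under 0.05). The 27 tested neighbours lie mostly between -1 and 0, and those of Abcb4 and Afm reach furthest down among the called ones.

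Markers of the tissues that use these genes were counted to see whether those cell types were present. Of 42 muscle, neural, liver and gut markers, 11 had no count and 14 were tested, of which 4 fell and 1, Acta2, rose, the last call being lost by DESeq2. Their summed level lay between 123 and 162 CPM in NT, between 65.4 and 95.7 CPM in Low and between 26.1 and 39.7 CPM in High. The largest share of it was Hnf4a, a transcription factor of liver and gut. Hnf4a was counted at 101, 83.3 and 29.7 CPM in the NT, Low and High libraries of K3117 and at 149, 55.7 and 13.2 CPM in K3174, with both High libraries below all others (log2 fold change -2.65 ± 0.31, adjusted p = 1.1e-04). Between the leukemias it did not pass (log2 -0.36, adjusted p = 0.48). The hepatocyte markers Alb, Ttr, Serpina1a, Fgb and Ahsg had no count in any library, and the gut marker Sis had none.

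**Figure D4:**
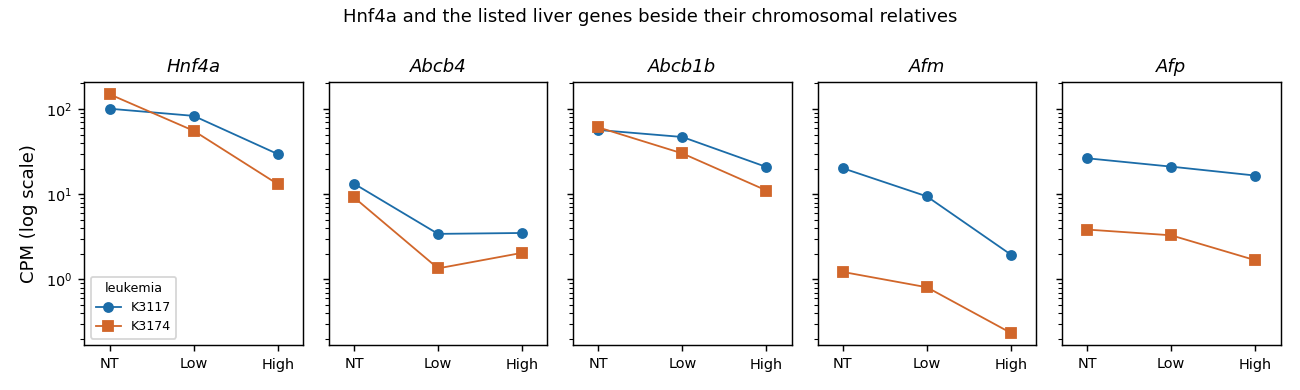
TMM-normalised CPM (log axis) of Hnf4a, of Abcb4 and Afm, and of their neighbouring relatives Abcb1b and Afp in NT, Low and High, with 1 point per library (circles K3117, squares K3174). Hnf4a, Abcb1b and Afp fall to their lowest level in High of each leukemia, and Afm and Afp are far lower in K3174 than in K3117.

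Most muscle and neural markers were low. Skeletal muscle markers summed to 14.9 CPM in NT of K3117 and to between 3.78 and 6.79 CPM in every other library. The regulator Myog made up part of this: it was counted at 5.86, 1.79 and 0 CPM in the NT, Low and High libraries of K3117 and at 0.438, 0.210 and 0 CPM in K3174, and it was also lower in K3174 (adjusted p = 3.9e-04). It had no count in either High library. Myh3 (-2.60 ± 0.68) and the epithelial gene Epcam (-2.88 ± 0.67) fell as well, both from under 1 CPM, and both calls were lost by DESeq2. Mylpf, the skeletal muscle marker with the highest mean in NT, did not pass (-0.59 ± 0.31, edgeR adjusted p = 0.24). It was counted at 7.31, 3.75 and 3.20 CPM in NT, Low and High of K3117 and at 3.33, 3.27 and 3.57 CPM in K3174. Neuron markers summed to between 2.71 and 2.77 CPM in NT and to between 1.24 and 3.47 CPM in High, with Snap25, Rbfox3 and Stmn2 at 0, and neural progenitor markers stayed at or under 0.306 CPM. Of 32 endothelial, stromal, lymphoid and erythroid markers 10 were tested and 0 were called by edgeR in either direction, with 4 at an unadjusted p under 0.05.

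The genes outside the list whose pattern over the 6 libraries was nearest to the median pattern of the 10 were H2-Q6, Slitrk2, H2-Q7, C230014O12Rik and Mrc2, at root mean square distances between 0.387 and 0.472 on the centred log2 scale (n = 6 libraries). H2-Q6, a nonclassical class I antigen gene, was counted at 9.98, 5.22 and 1.02 CPM in the NT, Low and High libraries of K3117 and at 3.02, 1.08 and 0.135 CPM in K3174. H2-Q7 is a close paralog, so counts of these 2 genes are uncertain. Slitrk2, a neuronal adhesion gene, was counted at 3.31, 1.79 and 0.178 CPM in the NT, Low and High libraries of K3117 and at 0.832, 0.510 and 0.0673 CPM in K3174.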

How the data were processed

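Raw read counts per gene, as the authors deposited them, were the only values used, with 1 column for each library. The submitters' processing notes name mm10, kallisto, STAR, STAR-Fusion and DESeq2, but neither the counting tool, its annotation nor its strand setting is given in the sources used here, so overlapping genes cannot be told apart. Symbols were matched for 99.5% of gene IDs, and positions come from GENCODE on GRCm38. Promoters come from RefSeq GRCm38.p6, and chromosome 18 was left out of the search. The chi-square per degree of freedom between libraries was at least 25.4, so all 6 were kept.

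Tests were run with edgeR 4.0.16 in R 4.3.3 (expression filter, TMM factors between 0.973 and 1.04, quasi-likelihood test, Benjamini-Hochberg adjustment over 15812 genes, threshold 0.05) and, as an alternative, DESeq2 1.42.0. Labels (3 levels) and leukemia (as a block) entered the model, with 2 residual degrees of freedom (1 with the interaction term) and a biological coefficient of variation of 12.0%. The SE is the absolute log2 fold change over the square root of its F statistic. The K numbers in the titles pair the libraries, and deviations from the group means correlated at 0.57, 0.44 and 0.64 between labels. Intervals of ratios are exact for counts, and intervals and floors cover counting error only. Figures were drawn in Python 3.11.15. The fitting was tested on simulated data with known changes.

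The 10 genes and all lists of relatives, partners, neighbours and markers were chosen with earlier results of these data known. Planned as tests were the place of Low against the midpoint, the difference between the leukemias, and the term for that difference in High. Each is given as a description for the 10 genes. Low values may have entered the choice of any of them, and a minimum mean level may have favoured genes high in 1 leukemia. A choice on falls may favour genes that fall alike in both leukemias. Named genes are the 10, called list members and neighbours, the most counted members and nearest neighbours that did not pass, and the 5 nearest patterns. Alternatives were other scalings and filters, DESeq2, no block, and each library left out.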

Additional observations from a re-analysis of the deposited data

Results flagged for a closer look

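For 6 marker genes of the myeloid lists, the difference between the leukemias in High departed from that in NT and Low (edgeR quasi-likelihood test of the interaction, adjusted over all tested genes). These were Mpo at -1.71, Ngp at -1.68, Ltf at -1.65, Camp at -1.24, S100a8 at -1.65 and S100a9 at -1.58 on the log2 scale. This fit has 1 residual degree of freedom and a median of 183 prior degrees of freedom. Its p-values therefore rest almost wholly on the spread pooled over genes. DESeq2 called 11 genes in place of 46, and whether these 6 were among them is not given here. The level in K3174 exceeded that in K3117 in each label for all 6. Ngp was counted at 1.05, 26.8 and 404 CPM in the NT, Low and High libraries of K3117 and at 15.6, 319 and 1610 CPM in K3174, a smaller excess in High than in NT or Low. Ltf was counted at 0.301, 0.833 and 33.9 CPM in the NT, Low and High libraries of K3117 and at 2.41, 38.2 and 332 CPM in K3174, where the excess in High was smaller than in Low but not than in NT.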

How the results depend on the processing

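No value changed sign in a way that reversed a call. Of 105 recomputed leukemia differences of the 10 genes, 101 kept their side of the threshold and 4 no longer passed. Of 115 recomputed midpoint values, 99 kept their side, 5 no longer passed and 11 newly passed. Called lower in High than in NT were 10 of the 10 genes with each library left out, 5 of the 5 that a mean of at least 5 CPM retains, and 2 of 10 without the block. For Low against NT the 7 became 9 with no filter, 2 of 5 at that mean and 0 without the block, and for High against Low the 9 became 4 of 5 at that mean and 0 without the block. Listed genes lower in K3174 numbered 9, and 5 of 5 at that mean. Leaving out each library in turn gave between 7 and 9. Without the replicate block, 493 in place of 2741 genes were called for High against NT, and 0 in place of 528, 866 and 56 for Low against NT, High against Low and Low against the midpoint. Without a filter on low counts, the last 3 numbers were 1071, 1425 and 304, and with a mean of at least 5 CPM they were 343, 522 and 17, when fewer genes are tested. That filter left 849 in place of 1481 genes between the leukemias. For the midpoint, library totals gave 37 and DESeq2 109, and for the interaction DESeq2 gave 11 in place of 46. Leaving out each library in turn gave between 1927 and 4394 genes for High against NT, 144 and 1483 for Low against NT, 335 and 1982 for High against Low, 829 and 2642 between the leukemias, and 8 and 439 for the midpoint. The highest number for High against NT came without the NT library of K3117. With such a library left out, the lone sample of its group is assumed to vary like the other groups. The interaction could not be tested with a library left out. Of 1682 recomputed values for relatives, partners, markers and neighbours, 1514 kept their side, 133 no longer passed and 35 newly passed. The cause of these shifts was not tested. Levels of the 10 genes in High rest on between 1 and 115 counts, which limits the precision of the largest ratios.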
